A study of Mus musculus with 4 samples.

Results

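The genes described are 9 markers and regulators of the dorsal neural tube and of the neural crest that leaves it: Pax3, Zic1, Msx1, Msx2, Snai1, Snai2, Twist1, Ednrb and Sox10. They were taken by name, and every probe set that the platform's annotation gives to 1 of these symbols alone was kept. That gave 14 of the 22690 probe sets on the arrays, and no probe set with several symbols held a member. RNA came from the mouse teratocarcinoma-derived line P19, which makes neural cells when grown as aggregates with retinoic acid. In 1 line human LIN28A, which binds let-7 precursors and keeps them from being processed, was expressed constitutively, and the control was unmodified P19 cells, with no empty vector stated. Cells of either line spent 4 days as aggregates with all-trans retinoic acid at 5e-07 M, and 2 arrays, numbered 1 and 2, were made for each line. The promoter that drives LIN28A and the number of clones are not given in the labels, which also do not say whether arrays of 1 number share a culture or a day.

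In the embryo, BMP and Wnt signals from the surface ectoderm and the roof plate set the dorsal identity of the neural tube. Progenitors there express the paired-box factor Pax3 and the zinc finger factor Zic1, and cells at the border also express the homeobox factors Msx1 and Msx2. Cells that become neural crest turn on Snai1, Snai2 and Twist1, which act in the epithelial to mesenchymal transition, and leave the tube. Migrating crest cells carry the transcription factor Sox10 and the endothelin receptor Ednrb, and later form peripheral neurons, glia and melanocytes. Several of these genes, Twist1, Snai1, Msx1 and Msx2 among them, are also used by mesoderm and mesenchyme, so they do not mark crest on their own. In bulk RNA such as this, fewer cells of a type and less RNA per cell cannot be told apart.

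The promoters of 4 members are shown, since the results turn on their contrast: Ednrb, whose fitted difference was below 0 at both of its probe sets, Msx1 and Twist1, whose difference turned with the replicate number, and Msx2, the paralog of Msx1, whose difference was near 0 with the deposited scaling. The sequences are RefSeq's, on build GRCm38.p6, and run 5′ to 3′ over the 250 bases before the gene's start. Capitals mark matches, on either strand, to CAGGTG (the E-box that Snail factors bind, with CACCTG on the other strand), TAATTA (a homeobox core), CCAAT (the box of that name, with ATTGG on the other strand) and TATAAA (the box that places the start of transcription in some genes, with TTTATA on the other strand); no marked matches overlap.
Ednrb (chr14:103843702-103843951, minus strand): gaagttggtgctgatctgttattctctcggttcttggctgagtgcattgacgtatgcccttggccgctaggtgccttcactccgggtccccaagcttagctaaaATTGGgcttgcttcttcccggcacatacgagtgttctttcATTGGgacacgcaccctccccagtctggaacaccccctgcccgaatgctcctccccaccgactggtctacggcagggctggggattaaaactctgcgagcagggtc
Msx1 (chr5:37824586-37824835, minus strand): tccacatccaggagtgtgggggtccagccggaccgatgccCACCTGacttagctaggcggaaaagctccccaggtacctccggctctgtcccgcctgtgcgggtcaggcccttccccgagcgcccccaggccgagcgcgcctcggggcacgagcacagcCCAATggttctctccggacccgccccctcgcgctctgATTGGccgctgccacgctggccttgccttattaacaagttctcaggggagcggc
Msx2 (chr13:53472781-53473030, minus strand): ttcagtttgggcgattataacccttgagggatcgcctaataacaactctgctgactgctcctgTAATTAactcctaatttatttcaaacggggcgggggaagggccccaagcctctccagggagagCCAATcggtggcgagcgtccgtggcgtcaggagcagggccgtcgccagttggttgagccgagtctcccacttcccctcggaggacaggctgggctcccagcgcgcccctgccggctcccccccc
Twist1 (chr12:33957421-33957670, plus strand): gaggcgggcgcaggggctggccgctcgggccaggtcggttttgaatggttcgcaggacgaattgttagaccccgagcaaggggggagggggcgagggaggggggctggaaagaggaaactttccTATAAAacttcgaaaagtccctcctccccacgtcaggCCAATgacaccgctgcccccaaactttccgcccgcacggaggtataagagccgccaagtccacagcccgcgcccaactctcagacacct
Zic1 and Snai1 were the other members with an entry, so 6 of 9 were searched. All 6 held a CCAAT box, against 33.8% of 32851 mouse promoters of the same length. Msx1 and Snai1 held CAGGTG or its complement, against 17.2% of promoters. TAATTA was in the Msx2 window alone, against 4.84% of promoters. TATAAA was in that of Twist1 alone, 126 bases before the start, against 12.4% of promoters. The 6 windows held 56.8% to 70.0% G and C, where the median of all promoters was 52.4%. These matches describe letters in a window and were not tested as binding sites.

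Values are the deposited intensity of each probe set, scaled by the authors so that each array has the same trimmed mean. Differences are LIN28A minus control in log2(value + 16), so 16 is the pseudocount, and they understate the change of dim probe sets. Probe sets whose mean log2 value lay under the 30th percentile of the table, a linear value of about 8.04, were not tested. Of the 14 member probe sets 10 passed this filter, which represent 7 of the 9 genes. Snai1 and all 3 probe sets of Sox10 did not pass. No member reached an adjusted p under 0.05 in limma's moderated test over all 15838 tested probe sets, and neither did any other probe set (0 higher, 0% and 0 lower, 0%). Before adjustment, 70 probe sets were higher (0.442%) and 192 lower (1.21%) with p under 0.05, and 1 member probe set, of Ednrb, was among the lower ones. That split was 167 higher and 107 lower with the arrays centred on their medians, and 122 and 168 with quantile normalization. Centring moved the median difference of all tested probe sets to 0.08, against -0.05 with the deposited scaling.

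Arrays with the same number were more alike than arrays of 1 line. Across tested probe sets, which are not independent replicates, Pearson's r was 0.971 between LIN28A 1 and control 1 and 0.970 between LIN28A 2 and control 2, against 0.938 between the LIN28A arrays and 0.932 between the control arrays. Differences are therefore given within number 1 and within number 2, each from 1 array a line and so with no test. Control 1 had the highest 18S ribosomal RNA signal at the 3' probe set (331), with 146 on LIN28A 1, 13.2 on LIN28A 2 and 13.5 on control 2. It also had the highest ratio of 3' to 5' beta-actin signal (4.71), with 2.76 to 3.37 on the other arrays. The median intensity was 29 on LIN28A 1 and 35.8 on control 1, against 36.7 on LIN28A 2 and 38.6 on control 2. Probe sets under 16 made up 42.4% on LIN28A 1 and 35.8% on control 1, against 40.5% and 39.4% in number 2. The mouse Lin28a gene, whose probe sets do not check the human transgene, read 56.1 and 37.5 on the LIN28A arrays, against 30.7 and 76.2 on the control arrays, at its brighter probe set. At its dimmer one it read 7.0 and 8.60 on the LIN28A arrays, against 28.8 and 15.5 on the control arrays (log2 difference -0.66, an unadjusted p of 0.0810 in limma's test, and 1 after adjustment).

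**Figure D1:**
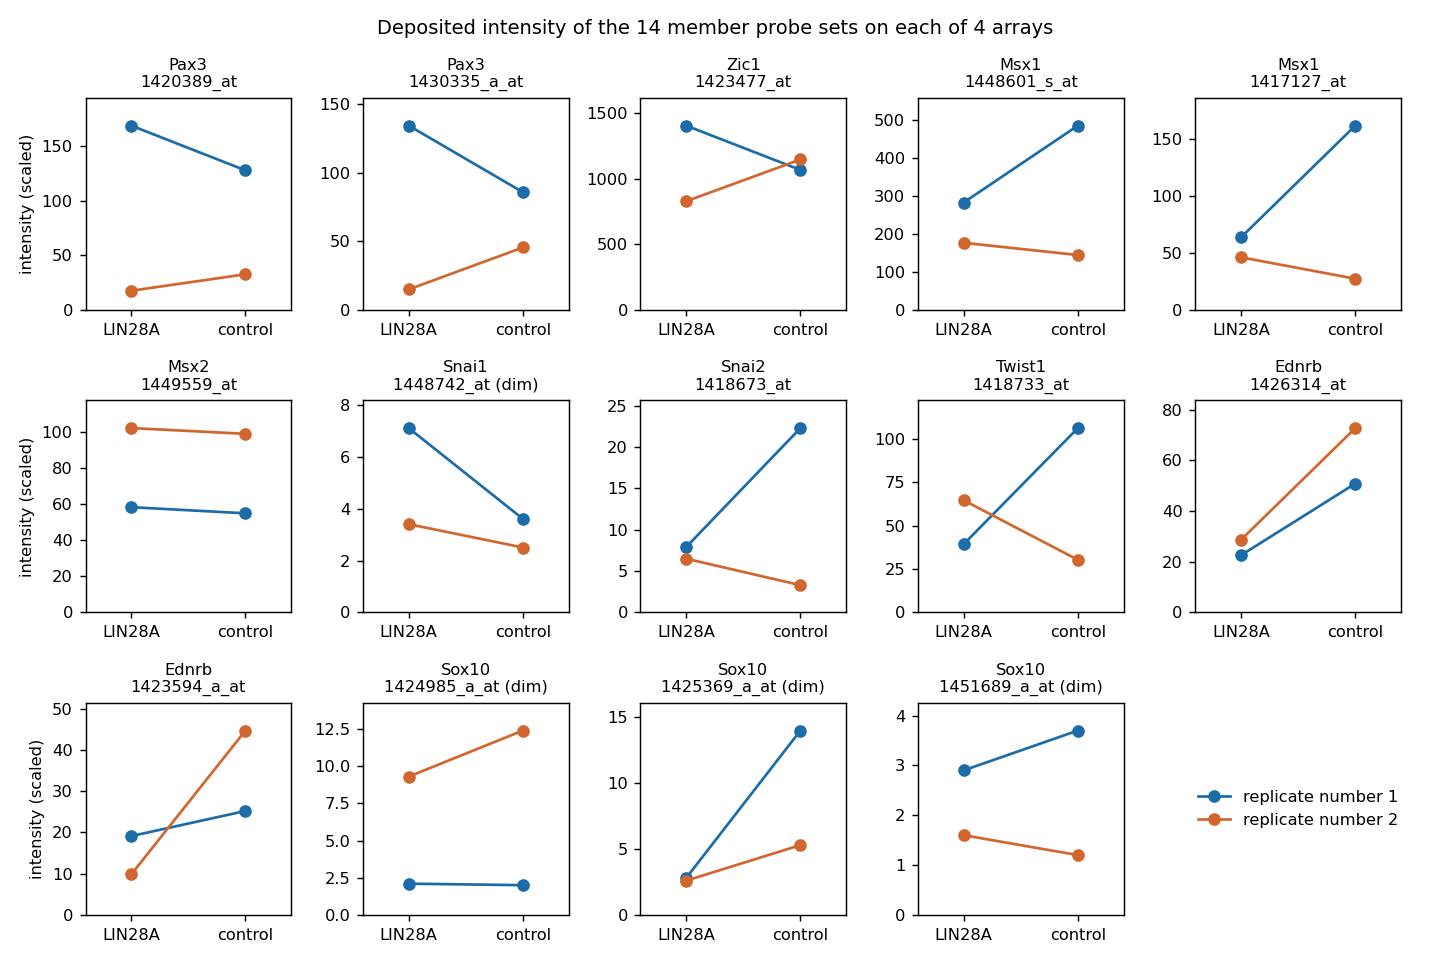
Deposited, scaled intensity (linear axis from 0) of each of the 14 member probe sets on the LIN28A (left) and control (right) arrays; points are single arrays, and lines join arrays of 1 replicate number. With the deposited scaling both Ednrb panels lie lower in LIN28A in both numbers (22.6 and 28.7 in LIN28A cells against 50.9 and 72.8 in control cells at 1426314_at), lines of Pax3, Zic1, Msx1, Snai2 and Twist1 slope in opposite directions, and "dim" marks probe sets that were not tested.

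Ednrb, the receptor through which endothelin 3 keeps crest-derived precursors of enteric neurons and melanocytes dividing and undifferentiated, was the member with the largest difference between the lines. At probe set 1426314_at it read 22.6 and 28.7 in LIN28A cells, against 50.9 and 72.8 in control cells (means 25.6 ± 4.31 and 61.9 ± 15.5, SD, n = 2 each). The groups did not overlap. The log2 difference was -0.89 ± 0.31 (SE, 95% interval -1.64 to -0.14; an unadjusted p of 0.0274 in limma's test, and 1 after adjustment). It was -0.79 in number 1 and -0.99 in number 2 with the deposited scaling. With median centring these became -0.59 and -0.94. The receptor thus read lower on the LIN28A array in each number, by an amount that in number 1 depended on the scaling. At its other probe set, 1423594_a_at, it read 19.1 and 9.80 in LIN28A cells, against 25.2 and 44.7 in control cells. The groups at this probe set again did not overlap, though the 9.80 lay under the pseudocount. There the log2 difference was -0.73 ± 0.34 (SE; an unadjusted p of 0.0787 in limma's test, and 1 after adjustment), with -0.23 in number 1 and -1.23 in number 2. The number 1 value depended on the scaling: it was 0.025 with quantile normalization and -0.028 with median centring. A difference of -1 or below in number 2 was found in 2.29% of all tested probe sets, and this was the 1 member probe set among them. Of all tested probe sets 1.49% had a difference at or below that of the brighter Ednrb probe set, and 2.73% at or below that of the dimmer one. Leaving out 1 array kept both below 0, at -1.10 to -0.69 and -1.01 to -0.45, and neither passed the threshold. The ligand gene Edn3, chosen after its values were seen, read at most 5.70 on any array at its 2 probe sets and was not tested.

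Counted over the members, 2 of the 10 tested probe sets, both of Ednrb, had both LIN28A arrays below both control arrays, as did 15.5% of all tested probe sets. None had both LIN28A arrays above both control arrays, as 10.0% of all did. By gene this was 1 lower and 0 higher of 7, where 16.6% of the 8930 tested genes lay lower and 11.5% higher, so the share was near the background. With fewer arrays to separate, the count was 3 lower and 1 higher without LIN28A replicate 1, 1 lower and 2 higher without LIN28A replicate 2, 2 lower and 2 higher without control replicate 1, and 4 lower and 1 higher without control replicate 2.

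Pax3, which marks dorsal progenitors and early crest, read higher on both number 1 arrays than on both number 2 arrays. At 1420389_at it read 169 and 17.6 in LIN28A cells, against 128 and 32.7 in control cells. At 1430335_a_at it read 134 and 15 in LIN28A cells, against 85.9 and 45.6 in control cells. At both probe sets LIN28A 1 was the highest array and LIN28A 2 the lowest, so the control arrays lay between the LIN28A arrays. The within-number differences were 0.36 in number 1 and -0.54 in number 2 at the first probe set, and 0.56 and -0.99 at the second. Fitted over all arrays, the difference was -0.09 ± 0.89 (SE; 95% interval -2.29 to 2.12) and -0.21 ± 0.75 (SE; -2.06 to 1.64). The first of these was 0.04 with median centring and 0.02 with a pseudocount of 64. Without LIN28A replicate 2 they were 1.14 and 0.93, and without control replicate 1 they were 0.69 and 0.15.

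Zic1, a zinc finger factor that keeps dorsal progenitors from differentiating and acts with Pax3 at the neural plate border, read 1404 and 828 in LIN28A cells, against 1066 and 1146 in control cells. LIN28A 1 was again the highest array and LIN28A 2 the lowest. The difference was 0.39 in number 1 and -0.46 in number 2, the same signs as for Pax3, and -0.03 ± 0.35 (SE; 95% interval -0.90 to 0.83) over all arrays. That value was 0.09 with median centring, 0.34 without LIN28A replicate 2 and 0.02 without control replicate 2. A higher reading on the LIN28A array in number 1 with a lower one in number 2 was seen in 16.8% of all tested probe sets.

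Msx1 and Msx2 are paralogous homeobox repressors that BMP signals induce in the dorsal midline and the neural plate border, and they gave different readings on these arrays. Msx1 at 1448601_s_at read 283 and 177 in LIN28A cells, against 486 and 145 in control cells. At 1417127_at it read 63.6 and 46.1 in LIN28A cells, against 161 and 27.3 in control cells. At both, control 1 was the highest array and control 2 the lowest, and the LIN28A arrays lay between them. The difference was -0.75 in number 1 and 0.26 in number 2 at the first probe set, and -1.16 and 0.52 at the second. Over all arrays it was -0.24 ± 0.58 and -0.32 ± 0.66 (SE), which became 0.58 and 0.70 without control replicate 1, and 0.07 at the first without LIN28A replicate 2.

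Msx2 at its single probe set read 58.4 and 102 in LIN28A cells, against 55.0 and 99.1 in control cells. The arrays of number 2 were higher in both lines, and within each number the lines differed by 0.07 and 0.04. With median centring these became 0.27 and 0.09, and with quantile normalization the first was 0.17. The fitted difference was 0.05 ± 0.39 (SE), and its 95% interval, -0.92 to 1.02, spans a log2 difference of nearly 1 in either direction. Leaving out LIN28A replicate 2 gave -0.28 and leaving out control replicate 1 gave -0.30, fits in which the numbers are unequal between the lines. The difference between the Msx1 and Msx2 responses was not tested.

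**Figure D2:**
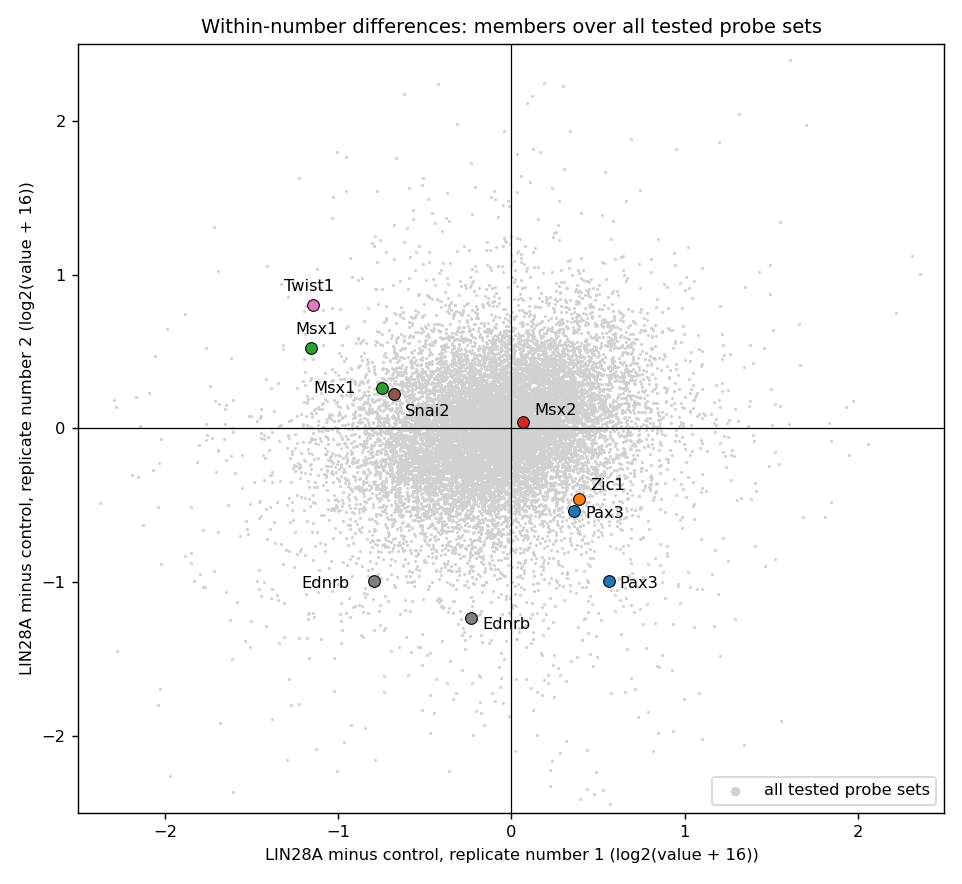
LIN28A minus control in log2(value + 16) within replicate number 1 (x axis) and number 2 (y axis) for the 10 tested member probe sets (coloured, labelled by gene) over all tested probe sets (grey); 29 grey points lie outside the axes. Ednrb lies lower in both numbers (at 1423594_a_at the number 1 value turns to 0.025 with quantile normalization), Pax3 and Zic1 are higher in number 1 and lower in number 2, Twist1, Msx1 and Snai2 are the other way round, and Msx2 is near 0 in both (0.27 and 0.09 with median centring).

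Twist1, a basic helix-loop-helix factor of crest mesenchyme and mesoderm, read 39.3 and 64.6 in LIN28A cells, against 106 and 30.3 in control cells. As for Msx1, control 1 was the highest and control 2 the lowest array, and the groups overlapped. Its difference was -1.14 in number 1 and 0.80 in number 2, the widest gap between numbers of any tested member probe set. A difference of -1 or below in number 1 was found in 2.55% of all tested probe sets, and 2 member probe sets, those of Twist1 and of Msx1 at 1417127_at, were among them. With median centring these 2 were -0.94 and -0.95, short of that mark. Over all arrays the Twist1 difference was -0.17 ± 0.52 (SE; 95% interval -1.45 to 1.10), turning to 0.53 with control replicate 1 left out and to 0.10 with LIN28A replicate 1 left out.

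Snai2, the Slug gene, a zinc finger repressor of epithelial genes in crest cells, read 7.90 and 6.50 in LIN28A cells, against 22.3 and 3.30 in control cells. Control 1 was the one array above 16, and without it the gene did not pass the filter. Its difference was -0.68 in number 1 and 0.22 in number 2, and -0.23 ± 0.40 (SE) over all arrays. The number 2 values both lay under 16, so with no detection calls the sign there is uncertain. Snai1, its relative that represses E-cadherin, read 7.10 and 3.40 in LIN28A cells, against 3.60 and 2.50 in control cells, and was not tested. All 4 values lay under the pseudocount, and the table holds no detection calls that would tell them from background.

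Sox10, the transcription factor that maintains migrating crest and drives its glial and melanocyte lineages, was dim at each of its 3 probe sets. At 1424985_a_at it read 2.10 and 9.30 in LIN28A cells, against 2.0 and 12.4 in control cells. At 1425369_a_at it read 2.80 and 2.60 in LIN28A cells, against 14 and 5.30 in control cells. At 1451689_a_at it read 2.90 and 1.60 in LIN28A cells, against 3.70 and 1.20 in control cells. All 12 values lay under 16. The crest factor gene Foxd3, chosen after its values were seen, read 1.20 and 3.30 in LIN28A cells, against 1.4 and 6.20 in control cells. Of the 17 other crest specifier genes with a probe set, only 4 (Foxd3, Dlx5, Dlx6 and Hand1) stayed under 16 on every array. The probe sets of Sox10, Snai1 and Foxd3 thus stayed under 16 on every array of both lines.

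By array number, 5 of the 10 tested member probe sets (both of Pax3, both of Msx1 and that of Snai2) read higher on both number 1 arrays than on both number 2 arrays, as did 23.7% of all tested probe sets. The reverse was seen for Msx2 alone of the members, and for 33.6% of all. The place of Snai2 among the 5 higher in number 1 rests on values under 16 on every array but control 1. Of the 7 tested genes, 5 differed in opposite directions in number 1 and number 2 at their brightest probe set, and so did 7 of the 10 tested probe sets; over all tested probe sets the share was 42.1%, and over all tested genes 41.2%. The 5 genes include Snai2, whose number 2 values both lay under 16. The dorsal progenitor genes Pax3 and Zic1 read higher in LIN28A in number 1 and lower in number 2. Msx1, Twist1 and, with that limit, Snai2 did the reverse, which 25.3% of all tested probe sets did. Ednrb read lower in both numbers with the deposited scaling, as did 33.3% of all, though at 1423594_a_at number 1 turned to 0.025 with quantile normalization, and Msx2 read slightly higher in both, as did 24.2%. The median difference of the 7 tested member genes was -0.17, with -0.68 in number 1 and 0.04 in number 2. The -0.68 is the value of Snai2 itself, which passed the filter only through control 1. Over the 8930 tested genes it was -0.04, with -0.08 in number 1 and 0.01 in number 2. The member median was -0.72 without control replicate 2, again the value of Snai2, -0.045 with median centring and -0.087 with no filter.

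**Figure D3:**
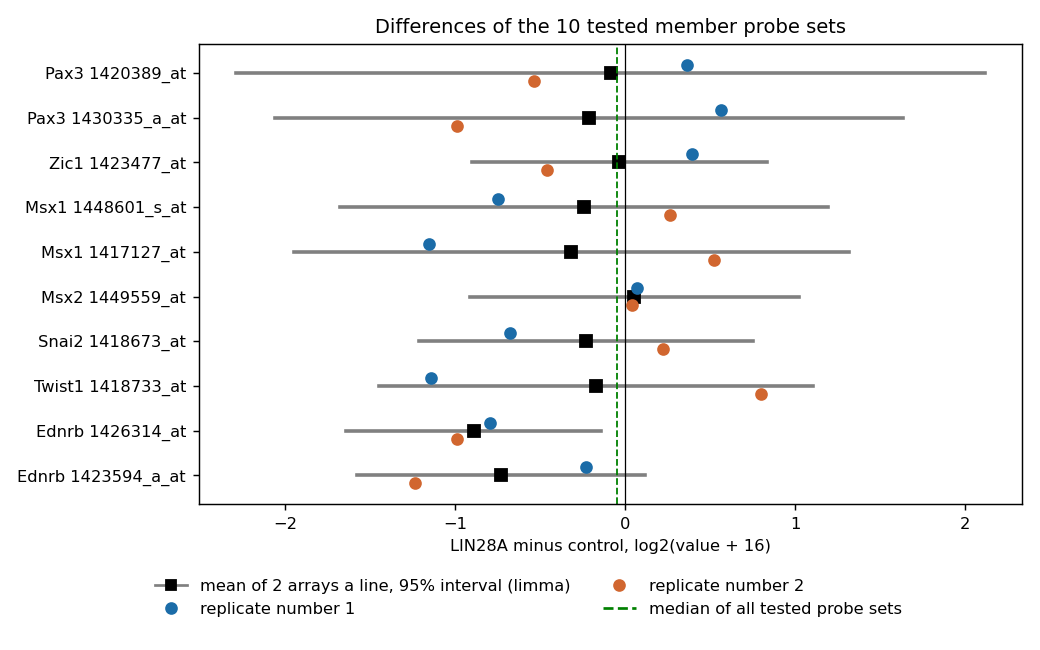
LIN28A minus control in log2(value + 16) for the 10 tested member probe sets: black squares with grey bars are the limma estimate over 2 arrays a line with its 95% interval, blue and orange points are the differences within replicate numbers 1 and 2, and the dashed line is the median of all tested probe sets (-0.05). The interval of Ednrb at 1426314_at (-1.64 to -0.14) lies below 0 before adjustment over the table, and the other 9 intervals include 0.

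Marker lists of other cell types also differed by number. Summed over the brightest probe set of each gene, 15 mesoderm markers read 150 and 308 in LIN28A cells, against 237 and 156 in control cells. That is lower on the LIN28A array in number 1 and higher in number 2, as for Twist1 and Msx1. The largest part of the gap in number 2 was 1 gene, Eomes (105 in LIN28A, 24.7 in control). In number 1 the gap was spread over several genes, the widest that of Nkx2-5 (9.1 in LIN28A, 26.3 in control). Of these markers 6 stayed under 16 on every array, namely Foxc2, Gata4, Meox2, Mixl1, Tbx5 and Tbx6, and of the 10 tested 7 differed in opposite directions in the numbers. Fibroblast and smooth muscle markers summed to 425 and 611 in LIN28A cells, against 394 and 226 in control cells, with 7 of 13 under 16 on every array, Col1a1, Lum, Postn and Pdgfrb among them. Of the 9 tested, 3 lay higher in LIN28A without overlap and 1 lower, against 11.5% and 16.6% of all tested genes. The higher ones were Col3a1, Acta2 and Myl9 (log2 differences 1.5, 0.91 and 0.69), and the lower one was Lox (-1.0). The 8 neural progenitor markers summed to 4361 and 3201 in LIN28A cells, against 3562 and 4962 in control cells. That is higher on the LIN28A array in number 1 and lower in number 2, as for Pax3 and Zic1, and none of these markers stayed under 16. Of the 8, 6 differed in opposite directions in the numbers. Most of the gap in the sums was Hes5 in number 1 (924 in LIN28A, 186 in control) and Fabp7 in number 2 (735 in LIN28A, 1955 in control). Hes5 was higher in LIN28A in both numbers. The 8 neuronal markers summed to 1140 and 2452 in LIN28A cells, against 2321 and 3388 in control cells, lower on the LIN28A array in both numbers, as for Ednrb. The 8 pluripotency markers summed to 271 and 1002 in LIN28A cells, against 223 and 439 in control cells, with Tdgf1 and Zfp42 under 16 on every array. Except on control 1, most of each sum came from 2 genes, Sall4 and Pou5f1. On control 1 Nanog (70.8) and Klf4 (40.8) read highest. All of these genes were chosen after their values were seen. Sall4 read 194 and 83.1 in LIN28A cells, against 16.4 and 2.10 in control cells, and Pou5f1 read 28.7 and 775 in LIN28A cells, against 30.3 and 374 in control cells. The median difference of the 6 tested markers of this list was -0.61 in number 1 and 1.06 in number 2. The 8 endoderm markers summed to 261 and 655 in LIN28A cells, against 312 and 496 in control cells, with Afp, Sox17 and Ttr under 16 on every array. The part that these cell types, or the 18S and beta-actin values of control 1, have in the members' values was not tested.

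**Figure D4:**
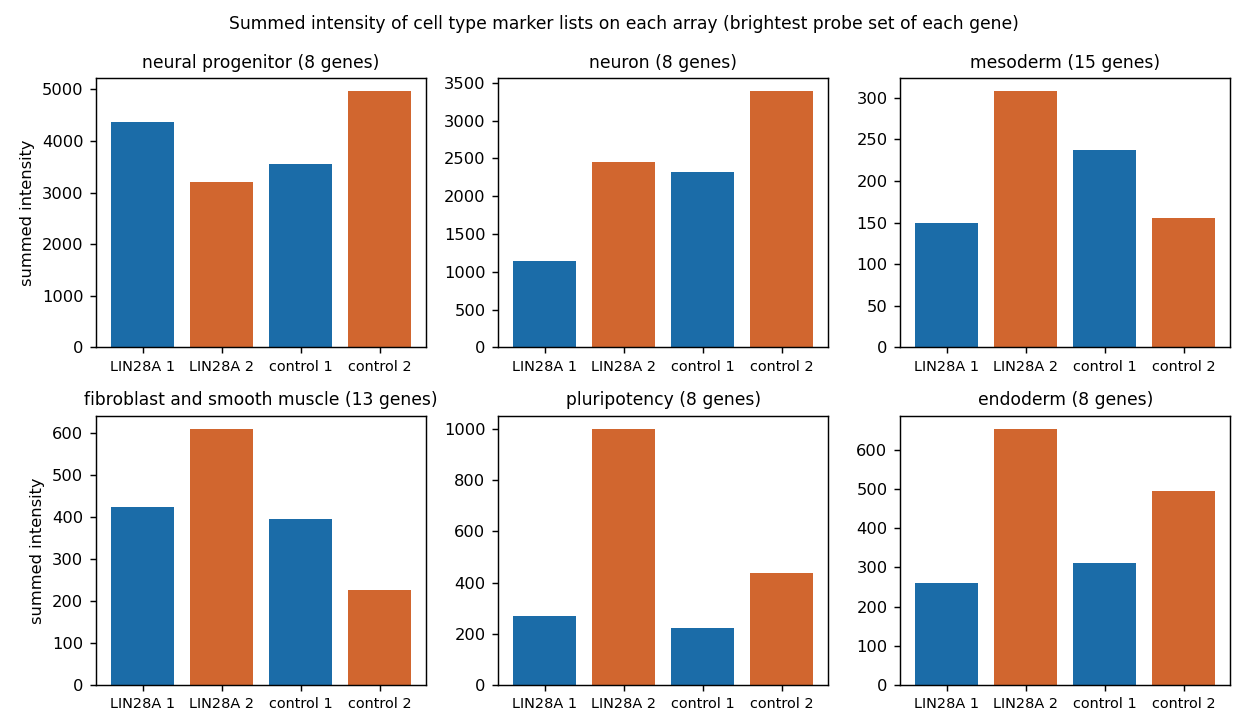
Summed intensity (linear axes from 0) of 6 marker lists on each array, with the LIN28A arrays left of the control arrays, blue for replicate number 1 and orange for number 2. The LIN28A arrays have mesoderm sums of 150 and 308, against 237 and 156 for control, and neural progenitor sums of 4361 and 3201, against 3562 and 4962 for control, so both lists differ between the lines in opposite directions in the numbers.

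Other genes of the dorsal tube and the crest were read from lists written from general knowledge. Counts without overlap are to be read against all tested genes, of which 11.5% lay higher and 16.6% lower in LIN28A. No gene of any of the 13 lists passed the threshold (limma, adjusted p = 1 for the lowest in each). Of 11 tested dorsal tube genes, 1 had both LIN28A arrays above both control arrays and 1 below, and 5 differed in opposite directions in the numbers, with medians of 0.24 in number 1 and -0.35 in number 2. The roof plate ligand gene Wnt1 read 61.6 and 61.0 in LIN28A cells, against 49.9 and 38.5 in control cells, and Wnt3a, a second ligand from the roof plate, read 10.6 and 3.60 in LIN28A cells against 20.5 and 11 in control cells. Wnt1 thus lay higher without overlap, while the gap of Wnt3a rests on 10.6 in LIN28A cells against 11 in control cells, both under 16. Gbx2, a homeobox gene of the anterior hindbrain and of border cells, read 29.3 and 53.0 in LIN28A cells, against 52.6 and 194 in control cells. Olig3, a factor of dorsal interneuron progenitors, read 24.2 and 13 in LIN28A cells against 13.3 and 5.0 in control cells, and both of these groups overlapped.

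Of 13 tested crest specifiers other than the members, 1 lay higher without overlap and 3 lower, shares near those of all tested genes, with medians of -0.02 in each number. Tfap2a, which helps to specify crest at the border, read 66.5 and 65.3 in LIN28A cells, against 68.1 and 115 in control cells. Sox9, which acts at the onset of crest formation, read 73.0 and 61.1 in LIN28A cells against 76.4 and 80.2 in control cells. Hand2, a factor of autonomic precursors, read 3.40 and 4.50 in LIN28A cells against 17.4 and 9.20 in control cells, and Myc, also a let-7 target, read 67.7 and 91.6 in LIN28A cells against 53.5 and 52.9 in control cells. For Tfap2a and Sox9 the gap in number 1 was small, at -0.03 and -0.05, and most of the difference came from number 2. Hand2 was under 16 on 3 of the 4 arrays.

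Of 11 tested genes of crest derivatives, 4 lay lower without overlap and 1 higher, against 16.6% and 11.5% of all tested genes. Of the 11, 7 were lower in both numbers, as were 32.6% of all tested genes. The list medians were -0.28 in number 1 and -0.12 in number 2. Ret, the GDNF receptor that works beside Ednrb in enteric precursors, read 17.3 and 18.3 in LIN28A cells, against 24.4 and 68.5 in control cells. Erbb3, the neuregulin receptor of crest-derived glia, read 8.20 and 10 in LIN28A cells against 29.1 and 12.2 in control cells, and Th, the catecholamine enzyme gene, read 0.600 and 6.30 in LIN28A cells against 21.9 and 9.80 in control cells. Phox2a, a factor of autonomic neurons, read 18.1 and 13.5 in LIN28A cells against 19.8 and 18.5 in control cells. Unadjusted limma p ran from 0.0875 to 0.618 for these 4 genes. Ret and Phox2a lay lower in LIN28A without overlap, though the gap of Phox2a rests on 18.1 on LIN28A 1 against 18.5 on control 2. For Erbb3 and Th the readings of number 2 all lay under 16, so with no detection calls their order against control 2 is uncertain. The gene higher without overlap, Mitf, named after its values were seen, read 27.0 and 24.1 in LIN28A cells, against 20.5 and 24.0 in control cells. The neuronal marker sums were also lower on the LIN28A array of each number, as given above, and Ret, Th and Phox2a are also neuronal genes.

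**Figure D5:**
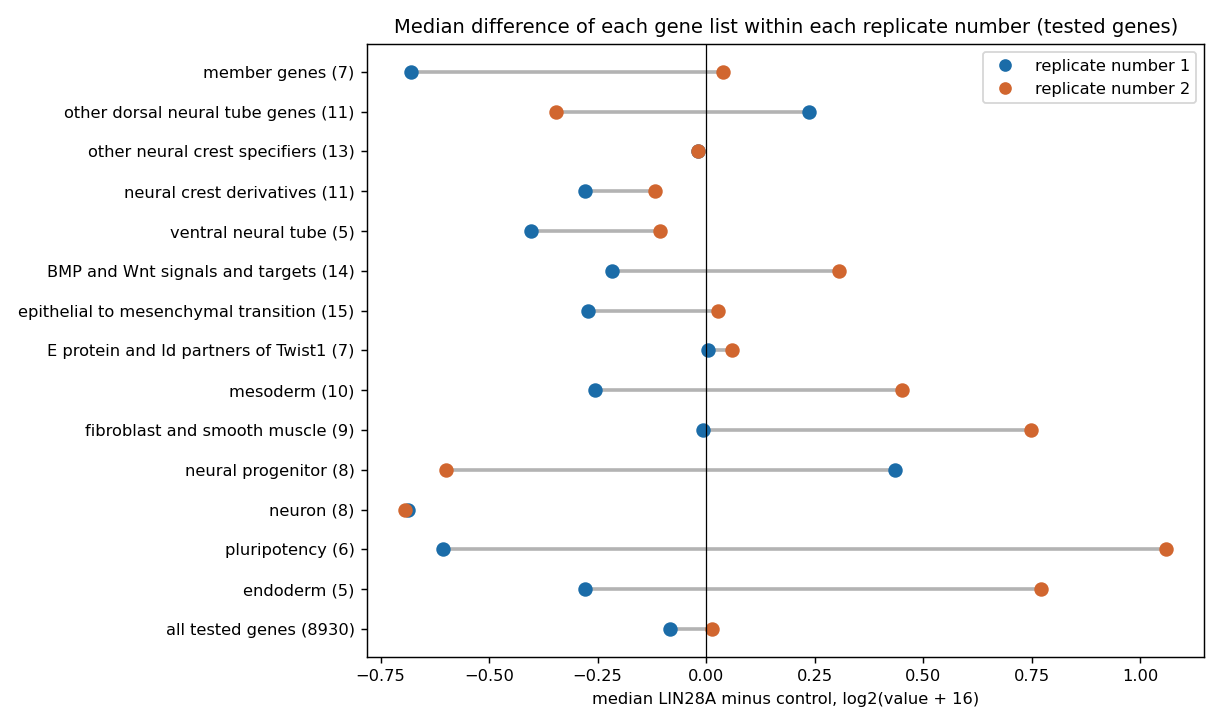
Median LIN28A minus control in log2(value + 16) of the tested genes of each list (number in brackets) within replicate number 1 (blue) and number 2 (orange), 1 array a line in each. The member genes have -0.68 and 0.04, the neural progenitor list 0.44 and -0.60, the mesoderm list -0.26 and 0.45, and all 8930 tested genes -0.08 and 0.01. The -0.68 is the value of Snai2, which passed the filter only through control 1.

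Ventral tube genes were mostly at the bottom of the scale, with 9 of the 12 that have a probe set, Shh, Foxa2, Nkx2-2 and Olig2 among them, under 16 on every array. Among BMP and Wnt signals and their targets, 2 of 14 tested genes lay higher and 2 lower without overlap, with medians of -0.22 in number 1 and 0.31 in number 2. The BMP feedback gene Smad6 read 52.9 and 131 in LIN28A cells, against 42.1 and 44.8 in control cells, and Bmp2 read 17.3 and 52.0 in LIN28A cells against 58.9 and 56.2 in control cells. The Wnt ligand gene Wnt6 read 16.5 and 28.1 in LIN28A cells against 13.2 and 14.8 in control cells, and the BMP antagonist gene Grem1 read 5.8 and 6.10 in LIN28A cells against 21.2 and 7.10 in control cells. Smad6 and Wnt6 lay higher and Bmp2 lower in LIN28A, and the gap of Grem1 rests on values under 16, with unadjusted limma p of 0.123 to 0.312 for the 4 genes. Both Wnt6 readings in control cells also lay under 16. The Bmp2 difference was -1.17 in number 1 and -0.09 in number 2. The counts of 2 higher and 2 lower were near the shares of all tested genes.

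Of 15 tested genes of the epithelial to mesenchymal transition, 2 lay lower without overlap and 0 higher, against 16.6% and 11.5% of all tested genes. The intermediate filament gene Vim read 3682 and 2983 in LIN28A cells, against 4084 and 4165 in control cells. The type II cadherin gene Cdh6 read 18.2 and 16.6 in LIN28A cells against 32.8 and 18.9 in control cells, the repressor gene Zeb2 read 101 and 43.2 in LIN28A cells against 47.6 and 26.4 in control cells, and the membrane protease gene Mmp14 read 55.0 and 32.2 in LIN28A cells against 78.4 and 55.0 in control cells. Zeb2 was higher on the LIN28A array in both numbers, by 0.88 and 0.48, and Mmp14 lower in both, by -0.41 and -0.56, with overlapping or touching groups. None of the 7 E protein and Id genes, whose products pair with Twist1 or its partners, had groups without overlap. The E protein gene Tcf4 read 356 and 636 in LIN28A cells, against 294 and 452 in control cells, and Id4 read 68.6 and 166 in LIN28A cells against 97.7 and 284 in control cells.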

How the data were processed

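RNA was measured on 1-colour Affymetrix arrays of 2 LIN28A and 2 control samples. The authors deposited 1 table of linear intensity values, whose mean after trimming 2% at each end was the same (150.1) on all 4 arrays, so the scaling was kept. The software that made them is not given here by any source, and 0 columns were left unused. Probe sets were named through the platform's annotation, in which 20380 had 1 symbol, 691 several and 1555 none, and 64 control probe sets were left out. The table holds no detection calls, and the number of arrays limits the precision.

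Values became log2(value + 16), and LIN28A minus control was fitted over all 4 arrays with limma 3.58.1 in R 4.3.3 (lmFit, eBayes, two-sided, no block), with Benjamini-Hochberg adjustment over all 15838 tested probe sets. With 2 arrays a line the smallest two-sided exact permutation p is 0.333, so none is given. Separate cultures are not stated for the repeats in the labels, and p-values then reflect the variation among these arrays alone, possibly technical.

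A gene stands for its brightest tested probe set in medians and counts by gene. All member probe sets are named. Up to 4 genes are named of the fibroblast list and of the lists of dorsal tube, crest, signal, transition and Twist1 partner genes. They are those without overlap and with the smallest p first. In any list, genes named as under 16 on every array, or for their part in a sum, were named after their values were seen. Further genes read by value are marked as chosen or named after their values were seen. Members and lists were chosen with earlier results of these data known. Pseudocount, filter, normalization, block, trend and leaving out each array were varied.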

Additional observations from a re-analysis of the deposited data

How the results depend on the processing

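Numbers are shared between the lines only as labels. Same-numbered arrays deviated together from their line's mean (r = 0.619 across probe sets). With the replicate block, limma called 1 probe set higher and 0 lower, none of them a member, with 468 higher and 890 lower before adjustment (p under 0.05), and the lowest adjusted p of a member was 0.457 (Ednrb, -0.89). Under each other setting 0 probe sets were called, and 0 with 1 array left out. Before adjustment the settings other than the block gave 51 to 167 higher, against 70, and 89 to 362 lower, against 192. The member median was -0.724 (the value of Snai2) to -0.086 without 1 array, with 1 to 2 genes higher without overlap and 1 to 4 lower. With fewer arrays such gaps come more easily. Of 10 tested member probe sets, 3 (Snai2 and both of Ednrb) kept the sign of the fitted difference wherever tested. Snai2 did not pass the filter without control replicate 1, its only array above 16. Its sign could therefore not be checked in that setting. Within number 1, Ednrb at 1423594_a_at, -0.231, was 0.025 with quantile normalization and -0.0281 with median centring. Pax3 at 1420389_at turned to 0.0173 with pseudocount 64 and 0.0403 with median centring, and Zic1 to 0.0924 with median centring. Without 1 array, Pax3 ranged over -1.32 to 1.14 and -1.35 to 0.926, Zic1 over -0.41 to 0.34, Msx1 over -1.06 to 0.579 and -1.33 to 0.699, Msx2 over -0.295 to 0.402 and Twist1 over -0.872 to 0.528. The causes were not tested. The pseudocount of 16 is not a measured background, and with no detection calls the order of values under it is uncertain. Among such values are those of LIN28A 2 for Ednrb at 1423594_a_at (9.8) and for Pax3 at 1430335_a_at (15).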
